A study of Mus musculus with 6 samples.

Results

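The Cyp2c genes encode cytochrome P450 enzymes of subfamily 2C, and 10 of them were followed here: Cyp2c23, Cyp2c29, Cyp2c37, Cyp2c38, Cyp2c39, Cyp2c40, Cyp2c50, Cyp2c54, Cyp2c55 and Cyp2c69. They were chosen by symbol, by matching the Ensembl identifiers of the count tables to gene names, and are 10 of the 37991 genes in those tables. The choice was made with earlier results of these data known. RNA sequencing was done on 6 samples in 3 groups of 2. The control livers came from mice with the TgAlbCre transgene, which makes Cre recombinase under the albumin promoter and so mainly in hepatocytes. TgAlbCreKap1lox mice, with this transgene and a floxed Kap1 gene, gave the KAP1-deleted livers. KAP1, the product of Trim28, silences chromatin at sites bound by zinc finger proteins. Tumours were cut from the livers of these TgAlbCreKap1lox mice. By mouse code, tumour 1 and KAP1-deleted liver 1 are from 1 animal, and so are tumour 2 and KAP1-deleted liver 2, so that 4 mice gave the 6 samples. All of them were on a high-fat diet for 27 weeks and were killed at 35 weeks of age. With a control of Cre alone, diet and transgene are shared by all groups, and no floxed mouse without Cre was analysed here.

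P450 enzymes sit in the endoplasmic reticulum, hold a haem group and use electrons from the reductase Por to put an oxygen atom into their substrates. Members of subfamily 2C oxidise drugs and steroids, and several convert arachidonic acid and linoleic acid to epoxides or hydroxy acids. In mouse liver many of them are made in pericentral hepatocytes, some differ between the sexes under control of growth hormone, and some answer to the nuclear receptors CAR (Nr1i3) and PXR (Nr1i2). The mouse genes arose by repeated duplication, so that close relatives lie side by side.

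In the GRCm38 annotation (GENCODE M21), 9 of the 10 genes lie in a cluster of 14 protein-coding Cyp2c genes on chromosome 19, from 39007019 to 40187333, in the order Cyp2c55, Cyp2c29, Cyp2c38, Cyp2c39, Cyp2c40, Cyp2c69, Cyp2c37, Cyp2c54 and Cyp2c50. Cyp2c23 lies 3.82 Mb beyond the cluster, at 44005022 to 44029208. The other 5 genes of the cluster are Cyp2c65, Cyp2c66, Cyp2c67, Cyp2c68 and Cyp2c70, and they were followed as relatives. The reads were counted on mm9, so these positions give the order of the genes and were not used for the counts.

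Because the genes are duplicates, what a read can tell apart sets what each count means. Sharing was measured with 31-base words, that is every stretch of 31 bases in a gene's annotated transcripts. Cyp2c23 shared none of its words with another gene, and Cyp2c55 and Cyp2c29 had 96.6% and 89.5% of words found in no other gene. The share was 83.4% for Cyp2c38, 73.1% for Cyp2c39, 70.8% for Cyp2c50, 57.7% for Cyp2c54 and 52.6% for Cyp2c37. It was lowest for Cyp2c69 and Cyp2c40, at 35.1% and 27.4%. Joining genes that share at least 10% of words gave the sets Cyp2c37, Cyp2c50 and Cyp2c54, then Cyp2c38 and Cyp2c39, then Cyp2c40 and Cyp2c69 with Cyp2c67 and Cyp2c68. Of the relatives, Cyp2c65 and Cyp2c66 also joined. Cyp2c23, Cyp2c29, Cyp2c55 and Cyp2c70 stood alone.

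**Figure D1:**
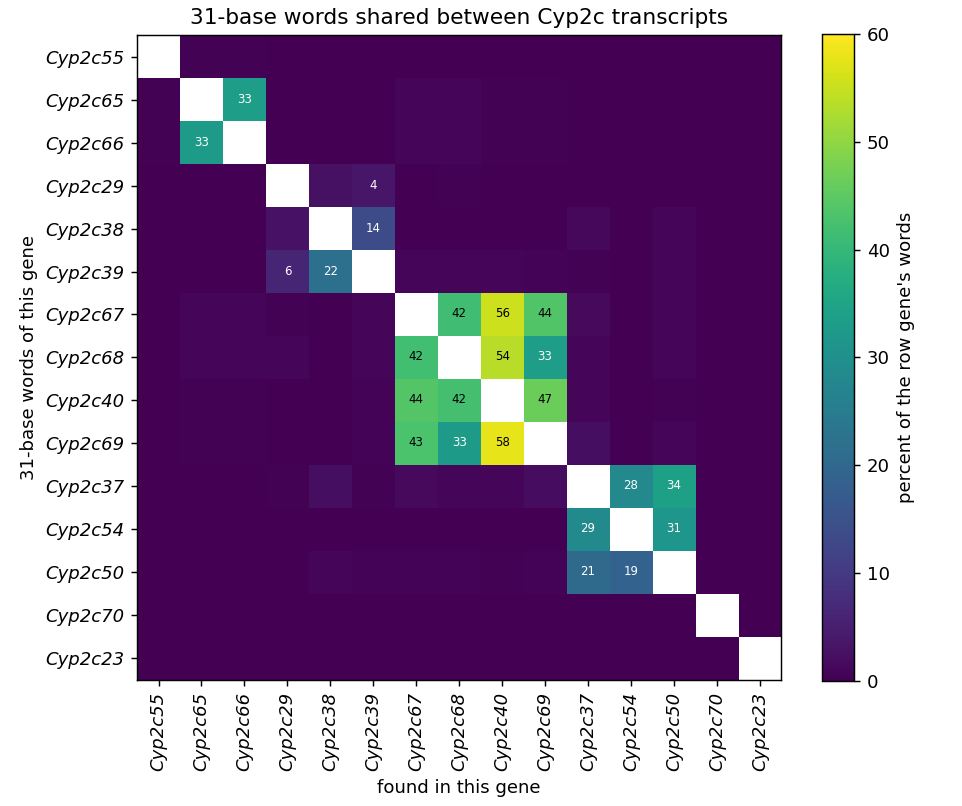
Share of 31-base words of each gene (rows, chromosome order) found in each other Cyp2c gene (columns), as a percent of the row gene's words, with shares of at least 3% printed. The block of Cyp2c67, Cyp2c68, Cyp2c40 and Cyp2c69 is the brightest, and the rows of Cyp2c55, Cyp2c70 and Cyp2c23 are dark throughout.

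The coding sequences show how close the sets are. Cyp2c37 was 96.1% identical to Cyp2c50 and 95.1% to Cyp2c54, over 1470 coding bases, and 98 positions differed among the 3. The stretch of 60 coding bases with most differences, bases 791 to 850, is printed because it is where a read can best tell these genes apart, with the 13 differing positions in capitals.
Cyp2c37: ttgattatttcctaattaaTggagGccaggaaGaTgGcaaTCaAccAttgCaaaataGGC
Cyp2c50: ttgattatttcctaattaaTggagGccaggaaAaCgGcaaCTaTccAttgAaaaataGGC
Cyp2c54: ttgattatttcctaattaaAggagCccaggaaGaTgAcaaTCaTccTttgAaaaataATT
Cyp2c38 and Cyp2c39 were 94.2% identical and differed at 85 coding positions. Their stretch with most differences, bases 337 to 396, holds 11, again in capitals.
Cyp2c38: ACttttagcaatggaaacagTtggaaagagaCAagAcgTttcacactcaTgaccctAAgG
Cyp2c39: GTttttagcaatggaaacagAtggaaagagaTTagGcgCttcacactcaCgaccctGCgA
Cyp2c40 and Cyp2c69 were 97.9% identical over the aligned coding bases, with 1 run of 282 identical bases. A stretch of 90 bases that is the same in both, bases 492 to 581 of Cyp2c40 and 405 to 494 of Cyp2c69, is printed as an example of sequence from which no read can be placed in 1 of the pair.
Cyp2c40: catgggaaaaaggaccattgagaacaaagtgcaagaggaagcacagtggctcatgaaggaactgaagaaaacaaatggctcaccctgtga
The coding sequence of Cyp2c23 was 59.5% to 66.4% identical to those of the genes in the cluster. How reads that match several genes were placed was not known. The tables count 0 such reads as set aside in every library.

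The libraries held 39723997 to 62178752 counts in genes, and levels are given as CPM, counts scaled to library size by the trimmed mean of M values (TMM). Trim28, the targeted gene, was at 32.5 and 35.9 CPM in the control livers, 5.06 and 6.01 in the KAP1-deleted livers and 5.22 and 4.59 in the tumours, so the labels and the target went together. Summed hepatocyte markers were at 105500 to 110829 CPM in control liver, 102340 to 107856 in KAP1-deleted liver and 50569 to 66761 in tumour. Most of that sum was Alb and Apob. In the tumours Alb was at 18157 and 34874 CPM and Apob at 27940 and 25444, beside 31703 and 27095 for Apob in KAP1-deleted liver. Of the 8 markers, 3 were called lower and 0 higher in tumour against KAP1-deleted liver, and Alb was not called (edgeR adjusted p = 0.126). The labels do not give the sex of the mice. Xist was at 1.41 CPM at most, and the Y-linked genes Ddx3y, Eif2s3y, Kdm5d and Uty were at 26.3 CPM or more, in all 6 libraries. In such bulk samples fewer cells of a type and less RNA per cell cannot be told apart.

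All 10 genes passed the filter on low counts. Levels were compared among these 10 genes per kilobase of all annotated exons joined (CPM per kb). The relatives were left out of this order, though 2 of them were high. Cyp2c67 had means of 137, 145 and 474 CPM per kb in control liver, KAP1-deleted liver and tumour. Cyp2c68 had 99.2, 104 and 215 in the same order. In control liver Cyp2c37, Cyp2c50, Cyp2c54 and Cyp2c29 were highest, with means of 275, 261, 197 and 131 CPM per kb, and each overlapped the next in its 2 samples. Cyp2c23 followed at 37.7, then Cyp2c38 at 27.0, Cyp2c40 at 18.4, Cyp2c69 at 11.6 and Cyp2c39 at 3.37 CPM per kb, with no overlap between neighbours. Cyp2c55 was lowest at 0.255 CPM per kb. In KAP1-deleted liver the same 4 genes led, with Cyp2c50 first at 188 CPM per kb, and Cyp2c23 had moved below Cyp2c39, at 3.44 against 4.91, with overlapping samples. In tumour the order was another one. Cyp2c29 and Cyp2c37 led with 468 and 282 CPM per kb and overlapped, Cyp2c38 stood beside Cyp2c50 at 172 CPM per kb each, and Cyp2c55 beside Cyp2c40 at 52.2 and 43.7. Cyp2c54 and Cyp2c69 overlapped at 32.4 and 29.4, Cyp2c39 was at 18.7, and Cyp2c23 was last at 3.46 CPM per kb. By the longest transcript in place of joined exons, Cyp2c50 stood at 417 CPM per kb in control liver, above Cyp2c37, and at 275 in tumour, above Cyp2c38. With length counted only in words found in no other gene, 6 of the 10 genes kept their rank over all samples, while Cyp2c29 and Cyp2c50 changed places and so did Cyp2c69 and Cyp2c55.

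**Figure D2:**
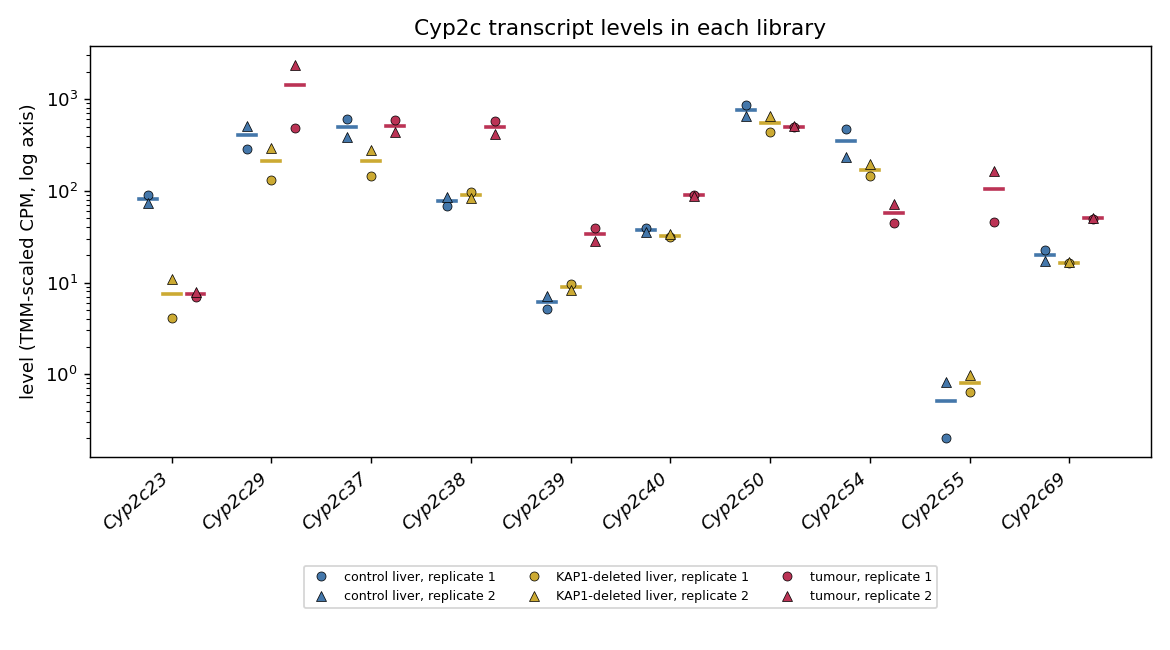
TMM-scaled CPM (log axis) of the 10 genes in each library, circles for replicate 1, triangles for replicate 2 and bars for the group means. Cyp2c23 is high in the control livers alone, Cyp2c55 is high in the tumours alone, and Cyp2c54 falls from control liver to tumour.

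In KAP1-deleted liver Cyp2c23 was the 1 Cyp2c gene whose difference from control passed the test. Control and KAP1-deleted livers were compared to see how liver outside the tumours differs from control. Both KAP1-deleted livers came from the mice that gave the tumours. Effects of the deletion and of a tumour in the same animal therefore cannot be told apart here. Of the 10 genes, 1 was called lower and 0 higher by edgeR at an adjusted p below 0.05, and DESeq2 and limma-voom gave the same counts. Over all 17558 genes tested, 0.0968% were called lower, 0.239% higher and 0.336% either way. The median log2 fold change of the 10 was -0.37, beside 0.00 over all genes, and 7 of the 10 lay below 0. At an unadjusted p below 0.05 there were 3, the additional genes being Cyp2c37 and Cyp2c54, where 5.44% of all genes tested did so.

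Cyp2c23, earlier named Cyp2c44, encodes an epoxygenase of arachidonic acid. It was at 89.3 and 73.5 CPM in the control livers, 4.06 and 10.8 in the KAP1-deleted livers and 6.96 and 7.98 in the tumours. Both control livers lay above all 4 other samples, and KAP1-deleted liver and tumour overlapped. It fell in KAP1-deleted against control liver, with a log2 fold change of -3.45 ± 0.44 (SE) and an edgeR adjusted p of 0.0419, a level 10.9-fold lower. The value was -4.32 without KAP1-deleted replicate 2 and -2.91 without replicate 1. Tumour against control liver gave -3.45 ± 0.44 and 0.00505, and tumour against KAP1-deleted liver 0.00 ± 0.41 and 0.996. The direction against control liver held in every alternative run, but the call in KAP1-deleted liver was lost in 6 of 14. Leaving out control replicate 1 or 2 gave adjusted p of 0.393 or 0.308, leaving out tumour 1 or 2 gave 0.0673 or 0.0649, and it was 0.0805 with both tumours left out and 0.0503 with a filter at a mean of 1 CPM. The call in tumour was lost without either control, at 0.0512 and 0.0651.

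The set Cyp2c37, Cyp2c50 and Cyp2c54 also had lower means in KAP1-deleted liver, without passing the test. Cyp2c37, which hydroxylates arachidonic acid, was at 611 and 391 CPM in control liver, 146 and 280 in KAP1-deleted liver and 589 and 440 in tumour. The KAP1-deleted livers lay below all other samples, and control liver and tumour overlapped. The log2 fold change against control was -1.23 ± 0.36, with an edgeR adjusted p of 0.463.

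Cyp2c54, an epoxygenase of the same set, was at 471 and 233 CPM in control liver, 145 and 194 in KAP1-deleted liver and 44.3 and 71.3 in tumour. The 3 groups did not overlap, and the tumours were lowest. For KAP1-deleted against control liver it gave -1.05 ± 0.37 with an edgeR adjusted p of 0.691.

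Cyp2c50, also an epoxygenase and the gene with most counts of the 10 in both kinds of liver, was at 871 and 650 CPM in control liver, 442 and 657 in KAP1-deleted liver and 494 and 510 in tumour. KAP1-deleted liver overlapped each of the other groups, while both tumours lay below both controls. The log2 fold change was -0.47 ± 0.27 in KAP1-deleted liver and -0.60 ± 0.27 in tumour against control, with adjusted p of 1 and 0.185 in edgeR. The summed level of the 3 genes, which does not depend on how shared reads were divided among them, was 1953 and 1275 CPM in control liver, 733 and 1132 in KAP1-deleted liver and 1127 and 1021 in tumour.

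None of the other genes was called by edgeR in KAP1-deleted against control liver. Cyp2c29 gave -0.92 ± 0.82, Cyp2c69 -0.27 ± 0.18 and Cyp2c40 -0.20 ± 0.16, and Cyp2c38 and Cyp2c39 gave 0.22 ± 0.24 and 0.54 ± 0.24. Cyp2c55 gave 0.55 ± 0.95. Their edgeR adjusted p ran from 0.939 to 1. Cyp2c39, Cyp2c40 and Cyp2c69 had no overlap between the 2 groups, at small differences. With 2 samples per group the values of any gene can easily separate without a difference. The share of all genes that did so was not counted.

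In tumours the genes parted in both directions. The comparison of tumour with KAP1-deleted liver asks how the tumours differ from the liver they grew in. Of the 10 genes, 5 rose (Cyp2c38, Cyp2c39, Cyp2c40, Cyp2c55 and Cyp2c69) and 1 fell (Cyp2c54). Over all genes tested 4.8% were called higher and 6.64% lower, 11.4% in all, and the median log2 fold change was 1.53 over the 10 genes and -0.03 over all. Of the 10, 8 passed at an unadjusted p below 0.05, the additional genes being Cyp2c29 and Cyp2c37, beside 29.1% of all genes tested. Against control liver, 5 rose and 2 fell (the same 5, with Cyp2c54 and Cyp2c23 lower), where 6.15% of all genes were called higher and 7.76% lower, 13.9% in all. The median was then 1.30, beside -0.02 over all genes. The 2 tumour comparisons share the tumour samples, so they are no independent measurements. Cyp2c38 with Cyp2c39, and Cyp2c40 with Cyp2c69, can share reads, so the 5 that rose may not be 5 separate signals. The genes were chosen with earlier results of these data known, so the shares over all genes are no test of enrichment.

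**Figure D3:**
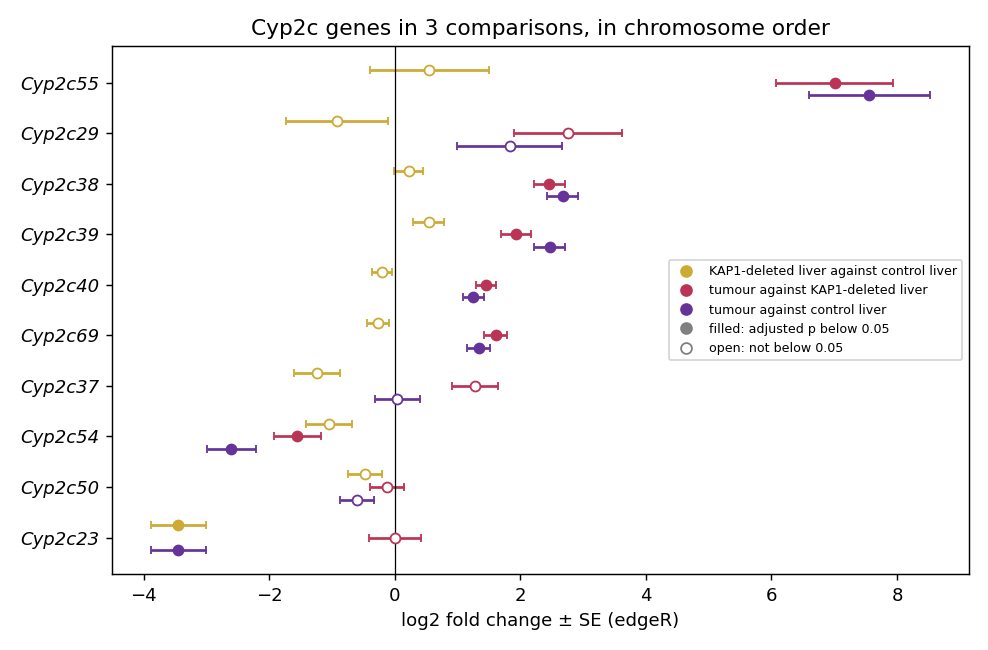
Fitted log2 fold change ± SE (edgeR) of the 10 genes, in chromosome order from top to bottom, for the 3 comparisons, with filled points where the adjusted p was below 0.05. Tumour values run from 7.55 at Cyp2c55 to -3.45 at Cyp2c23, the value of Cyp2c23 in KAP1-deleted liver is the one filled point of that comparison, and Cyp2c37, Cyp2c54 and Cyp2c50 lie apart from each other in tumour.

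Cyp2c55, known as an enzyme of intestine and as inducible in liver through CAR and PXR, had the widest range. It was at 0.202 and 0.815 CPM in control liver and 0.636 and 0.974 in KAP1-deleted liver, from 7, 48, 28 and 46 counts. In the tumours it reached 45.7 and 163 CPM, from 3310 and 8543 counts. Both tumours lay far above all 4 livers, which overlapped each other. The log2 fold change was 7.01 ± 0.93 against KAP1-deleted liver (129-fold, edgeR adjusted p = 0.0138) and 7.55 ± 0.96 against control liver (188-fold, adjusted p = 0.0103). Leaving out libraries moved the size. Without tumour 1 the values were 7.65 and 8.19, and without tumour 2 they were 5.81 and 6.36, all still called (adjusted p from 0.00268 to 0.00467). Without control replicate 1 or 2 the second value was 6.98 and 8.99, with adjusted p of 0.0959 and 0.120, and when KAP1-deleted replicate 1 or 2 was left out the first had adjusted p of 0.215 or 0.253. Leaving out control replicate 1 or 2 gave 0.0585 or 0.0591 for the first. Leaving out KAP1-deleted replicate 1, replicate 2 or both gave 0.0939, 0.0934 or 0.0696 for the second. Of 8 intestine markers Cdx1 was at 0 in every library, and the summed level was 203 to 204 CPM in control liver, 159 to 167 in KAP1-deleted liver and 115 to 117 in tumour, and most of that sum was Fabp2. Vil1, another of these markers, was at 0.0339 to 0.404 CPM in the livers and 0.276 and 2.82 in tumours 1 and 2, with no call (edgeR adjusted p = 0.205 against KAP1-deleted liver). The part of such markers in the level of Cyp2c55 was not tested.

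Cyp2c38 and Cyp2c39 lie side by side in the cluster and rose together. Cyp2c38 was at 68.3 and 86.6 CPM in control liver, 96.5 and 83.7 in KAP1-deleted liver and 575 and 414 in tumour. Cyp2c39, a retinoic acid hydroxylase, was at 5.17 and 7.09, 9.56 and 8.30, and 39.6 and 28.4 CPM in the same order. For both genes the 2 tumours lay above all 4 livers.

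The log2 fold change against KAP1-deleted liver was 2.46 ± 0.25 for Cyp2c38 (edgeR adjusted p = 0.002) and 1.93 ± 0.24 for Cyp2c39 (0.00409). Against control liver it was 2.68 ± 0.25 (0.0011) and 2.47 ± 0.25 (0.00138). The calls of both genes held in every alternative run. The counts of Cyp2c38 over those of Cyp2c39 were 13.2 and 12.2 in control liver, 10.1 and 10.1 in KAP1-deleted liver and 14.5 and 14.6 in tumour. Of the words of Cyp2c39, 22% occur in Cyp2c38, and how many counts of Cyp2c39 are reads of Cyp2c38 was not tested.

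Cyp2c40 and Cyp2c69, with the relatives Cyp2c67 and Cyp2c68, form the set with most shared sequence. Cyp2c40, which makes a hydroxylated arachidonic acid, was at 39.2 and 35.6 CPM in control liver, 31.6 and 33.6 in KAP1-deleted liver and 91.0 and 87.2 in tumour. Cyp2c69 was at 22.5 and 17.2, 16.3 and 16.6, and 49.3 and 51.2 CPM. Both tumours lay above all livers for each gene.

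Against KAP1-deleted liver Cyp2c40 rose by 1.45 ± 0.16 on the log2 scale (edgeR adjusted p = 0.00278) and Cyp2c69 by 1.61 ± 0.19 (0.00297). Against control liver the values were 1.25 ± 0.16 (0.00336) and 1.34 ± 0.18 (0.00434). The calls of both genes held in every alternative run. The counts of Cyp2c40 over those of Cyp2c69 stayed between 1.70 and 2.07 in every library. Those of Cyp2c67 over Cyp2c40 ran from 5.90 to 9.97, and those of Cyp2c68 over Cyp2c40 from 4.06 to 5.91. Cyp2c67 and Cyp2c68 rose as well, by 1.71 ± 0.22 (adjusted p = 0.00457) and 1.04 ± 0.18 (0.0132) against KAP1-deleted liver. The summed level of the 4 genes was 499 and 433 CPM in control liver, 489 and 469 in KAP1-deleted liver and 1301 and 1361 in tumour. Most of it came from Cyp2c67 and Cyp2c68, and how many counts of Cyp2c40 and Cyp2c69 are reads of these relatives was not tested.

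Cyp2c29, an epoxygenase of arachidonic acid, differed most between the tumours. It was at 289 and 516 CPM in control liver, 130 and 294 in KAP1-deleted liver and 486 and 2379 in tumour. Both tumours lay above both KAP1-deleted livers, tumour 2 lay above all other samples, and tumour 1 overlapped the controls. The log2 fold change against KAP1-deleted liver was 2.76 ± 0.86 with an edgeR adjusted p of 0.105, and against control liver 1.83 ± 0.83 with 0.215. With the mouse as a block, which compares each tumour with the liver of its own mouse, the first was 2.46 with an edgeR adjusted p of 0.00027. That fit has only 2 pairs of samples to measure a spread from. Its p therefore leans on the spread shared over all genes. Without tumour 1 the values were 3.48 (adjusted p = 0.0249) and 2.56 (0.0457), and without tumour 2 they were 1.18 (0.238) and 0.26 (0.808). Without KAP1-deleted replicate 2 the first was 3.45 (0.352). The size of the difference thus depended on the library left out, and it was smallest without tumour 2. Against KAP1-deleted liver Cyp2c29 was also called with the DESeq2 test, with library totals alone and with no filter on low counts, but not with limma-voom. Against control liver the DESeq2 test did not call it, and the fit with no filter did.

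Within the set of Cyp2c37, Cyp2c50 and Cyp2c54 the tumours differed from gene to gene. Cyp2c54 fell against KAP1-deleted liver by 1.56 on the log2 scale (SE 0.38, edgeR adjusted p = 0.0377) and against control liver by 2.61 (SE 0.39, adjusted p = 0.00613). The second call held in every alternative run. The first was lost without KAP1-deleted replicates 1 and 2 (0.0661 and 0.179), without tumours 1 and 2 (0.186 and 0.0681), with upper-quartile scaling (0.0572) and with the filter at 1 CPM (0.0548).

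Cyp2c37 gave 1.27 ± 0.36 against KAP1-deleted liver with an edgeR adjusted p of 0.0615, and 0.04 ± 0.36 against control liver (0.958). With the mouse as a block, a fit on only 2 pairs, the first edgeR adjusted p was 0.0263. The first was also called with the DESeq2 test, with library totals alone and with no filter on low counts, but not with limma-voom. Cyp2c50 gave -0.13 ± 0.27 against KAP1-deleted liver (0.782), and 0.40 with library totals alone. The counts of Cyp2c37 over those of Cyp2c54 were at most 1.68 in the 4 livers, and 13.3 and 6.17 in the tumours. Counts of Cyp2c50 over Cyp2c54 went from 1.85 to 3.38 in the livers to 11.1 and 7.15 in the tumours. Summed over the set, the tumours (1127 and 1021 CPM) overlapped KAP1-deleted liver and lay below control liver. With library totals alone they were at 1476 and 1242 CPM and overlapped control liver, at 1703 and 1208.

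The mix of transcripts also differed between the groups. Summed over the 10 genes the level was 2466 and 2011 CPM in control liver, 1022 and 1580 in KAP1-deleted liver and 2421 and 4152 in tumour. Tumour and control overlapped, and KAP1-deleted liver lay below both. Scaled by library totals alone, the sums were 2152 and 1906 CPM in control liver and 3170 and 5052 in tumour, which do not overlap. Of the counts in the 10 genes, Cyp2c50 took 35.3% and 32.3% in control liver, 43.2% and 41.6% in KAP1-deleted liver and 20.4% and 12.3% in tumour. The share of Cyp2c54 went from 11.6% to 19.1% in the livers to 1.83% and 1.72% in the tumours. Cyp2c38 took 23.8% in tumour 1 and 9.97% in tumour 2, where Cyp2c29 took 57.3%.

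**Figure D4:**
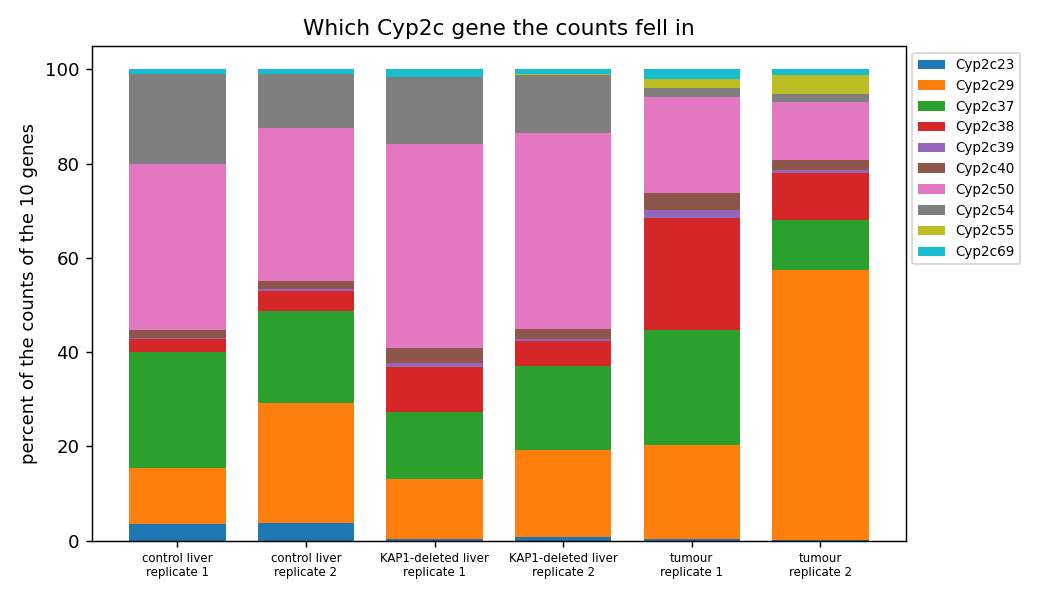
Percent of the counts of the 10 genes that fell in each gene, 1 bar per library, without correction for gene length. Cyp2c50 and Cyp2c54 take less of the tumour bars, Cyp2c38 takes 23.8% of tumour 1, and Cyp2c29 takes 57.3% of tumour 2.

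Of the other genes of the cluster, Cyp2c70, a bile acid hydroxylase, was at 54.4 and 143 CPM in control liver, 152 and 237 in KAP1-deleted liver and 147 and 318 in tumour, with no call (edgeR adjusted p of 1, 0.796 and 0.203). Cyp2c65 had 2 counts over both control livers, 0 over both KAP1-deleted livers, and 4 and 15 in the tumours, and Cyp2c66 had at most 1 in any library. Neither passed the filter. The genes next to the cluster gave 1 call in each direction of 10 tested in tumour against KAP1-deleted liver. Over all genes tested 4.8% were called higher and 6.64% lower. Hells, a chromatin remodeller, was higher by 1.41 ± 0.28 (edgeR adjusted p = 0.0202) and Plce1, a phospholipase, was at -2.06 ± 0.29 (0.00606). Of 9 neighbours of Cyp2c23, Abcc2 (a bile canalicular export pump) was called higher in tumour, at 1.23 ± 0.24 (0.0186). In KAP1-deleted against control liver 0 of these 19 neighbours were called by edgeR, DESeq2 or limma-voom, and 0 had an unadjusted p below 0.05. The shares over all genes tested were 0.336% called by edgeR and 5.44% at that unadjusted p, so 0 among so few says little. The neighbours of Cyp2c23 ran from -0.25 to 0.15.

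RefSeq promoters of GRCm38.p6 were at hand for 8 of the 10 genes, without Cyp2c23 and Cyp2c54. Each covers 250 bases before to 50 after the start, and motifs were looked for on both strands. CAAAGTCCA, a site form of the hepatocyte factor HNF4, was in Cyp2c40 and Cyp2c69 and in 0.475% of 32851 promoters. The looser CAAAGTCNA, chosen after the promoters had been read and holding the first motif, was in 5 of 8 (Cyp2c29, Cyp2c37, Cyp2c39, Cyp2c40 and Cyp2c69) and in 1.04% of all. Because it was fitted to these promoters, and promoters of duplicated genes are not independent, these shares do not test enrichment. CTTTGAT, for TCF/LEF, was in Cyp2c29 and Cyp2c39 and in 3.73% of all. TTCNNNGAA (STAT5, 8.30% of all) and TTGCGCAA (C/EBP, 0.183% of all) were in 0 of the 8, and so were a palindromic HNF1 motif and a direct repeat with a spacer, of the kind CAR and PXR bind. The promoters of the near-identical pairs are printed from 140 to 21 bases before the start, 5′ to 3′ on the gene's strand, with CAAAGTCNA in capitals, because both members rose in tumour (Cyp2c38 with Cyp2c39, Cyp2c40 with Cyp2c69) or neither was called (Cyp2c37 and Cyp2c50).
Cyp2c38, chr19:39463096-39463215, minus strand: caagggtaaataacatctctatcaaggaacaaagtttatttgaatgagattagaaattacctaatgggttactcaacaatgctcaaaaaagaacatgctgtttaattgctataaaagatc
Cyp2c39, chr19:39510682-39510801, plus strand: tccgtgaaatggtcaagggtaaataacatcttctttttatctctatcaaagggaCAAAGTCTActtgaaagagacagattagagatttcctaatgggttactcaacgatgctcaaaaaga
Cyp2c40, chr19:39812835-39812954, minus strand: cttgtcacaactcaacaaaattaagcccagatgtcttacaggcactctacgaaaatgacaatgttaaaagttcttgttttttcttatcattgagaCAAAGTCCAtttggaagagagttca
Cyp2c69, chr19:39886790-39886909, minus strand: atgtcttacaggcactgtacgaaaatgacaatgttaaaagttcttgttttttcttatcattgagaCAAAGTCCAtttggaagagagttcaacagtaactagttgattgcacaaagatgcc
Cyp2c37, chr19:39992284-39992403, plus strand: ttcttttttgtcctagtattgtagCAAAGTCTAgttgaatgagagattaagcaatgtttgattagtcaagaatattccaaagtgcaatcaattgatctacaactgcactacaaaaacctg
Cyp2c50, chr19:40089539-40089658, plus strand: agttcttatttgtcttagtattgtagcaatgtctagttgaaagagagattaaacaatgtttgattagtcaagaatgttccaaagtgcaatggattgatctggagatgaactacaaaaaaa
In this window CAAAGTCNA was in 1 of the pair Cyp2c38 and Cyp2c39, which rose together, and in both Cyp2c40 and Cyp2c69. A match is a description of letters, and no binding was measured here. The palindromic HNF1 motif was in only 0.0609% of all promoters and the direct repeat in 0.0122%, and the C/EBP motif was rare too (0.183%). Letters this rare are missing from nearly any 8 promoters. Their absence therefore cannot tell whether these promoters hold sites for HNF1, C/EBP, CAR or PXR.

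The other genes around these enzymes were read as lists. For all lists in tumour against KAP1-deleted liver, the shares over all genes tested were 4.8% called higher and 6.64% lower. Of 12 electron donors and haem genes, 1 rose and 1 fell in that comparison, close to those shares. Cyb5r1, a reductase, gave 1.34 ± 0.24 (edgeR adjusted p = 0.0138) and Fech, which puts iron into the haem ring, -1.04 ± 0.19 (0.0133). With library totals alone 4 rose and 0 fell, beside 4313 higher and 520 lower over all genes tested. Por gave 0.46 ± 0.28 (0.308). Of 7 tested epoxide hydrolases and other epoxide makers 0 were called in any comparison by edgeR. In tumour against KAP1-deleted liver 5 of them had an unadjusted p below 0.05 (29.1% of all genes tested did), limma-voom called 0 and DESeq2 called 1 in each direction. Ephx1, the microsomal epoxide hydrolase, gave 0.98 ± 0.37 and Cyp2j5, another epoxygenase, -2.60 ± 0.87 (edgeR adjusted p = 0.123 for the latter).

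Of 18 receptors and factors known to act on Cyp2c genes, 0 rose and 5 fell in tumour against KAP1-deleted liver, with a list median of -0.52. With library totals alone 2 rose and 3 fell, with a median of 0.02. Cebpa, a hepatocyte factor, was at 106 and 157 CPM in control liver, 138 and 166 in KAP1-deleted liver and 44.9 and 50.1 in tumour, at -1.68 ± 0.23 (edgeR adjusted p = 0.00589). Esr1, the oestrogen receptor, gave -2.21 ± 0.36 (0.0109) and Cebpb -1.25 ± 0.23 (0.0155). Nr1i2 (PXR) gave -0.48 ± 0.22 (0.185), Nr1i3 (CAR) 0.25 ± 0.38 (0.704) and Hnf4a -0.85 ± 0.28 (0.0863), none of them called. In KAP1-deleted against control liver 0 of the 18 were called by edgeR, DESeq2 or limma-voom, and 0 had an unadjusted p below 0.05. Over all genes tested 0.336% were called by edgeR and 5.44% had an unadjusted p below 0.05, so 0 among so few says little.

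Of 22 tested targets of CAR and PXR outside Cyp2c, 8 rose and 2 fell in tumour against KAP1-deleted liver, with a list median of 0.49. Cyp3a11, a main drug-oxidising P450, was at 1083 and 2132 CPM in control liver, 1814 and 2671 in KAP1-deleted liver and 11594 and 9535 in tumour, at 2.24 ± 0.41 (edgeR adjusted p = 0.0152). Akr1b7 rose by 7.04 ± 0.81 (0.00322), and Cyp2b10, a standard CAR target, was not called, at -2.58 ± 1.26 (0.255).

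Of 15 growth hormone and sex-biased regulators 0 rose and 2 fell in that comparison, Nfia at -1.02 ± 0.17 (edgeR adjusted p = 0.0109) and Igf1 at -2.89 ± 0.62 (0.0335). Stat5b gave -0.20 ± 0.24 (0.622). Trim24, a relative of Trim28, was the 1 gene of the 15 called in KAP1-deleted against control liver, at 1.75 ± 0.26 (0.0474). Over all genes tested 0.336% were called there.

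Markers of the zones of the liver lobule were read as lists as well. The position of the enzymes themselves was not measured. Of 14 tested pericentral markers 10 rose and 0 fell in tumour against KAP1-deleted liver, with a median of 1.67. Glul, which makes glutamine, was at 664 and 900 CPM in control liver, 303 and 535 in KAP1-deleted liver and 5036 and 4598 in tumour. Lgr5 and Axin2, genes of the Wnt pathway, gave 3.38 ± 0.20 (edgeR adjusted p = 0.0003) and 3.23 ± 0.27 (0.00119). Of 15 periportal markers 0 rose and 10 fell, with a median of -2.87, among them Pck1 at -3.34 ± 0.46 (0.00559) and Ass1 at -2.10 ± 0.28 (0.00492). These markers moved in the samples where Cyp2c38, Cyp2c39, Cyp2c40, Cyp2c55 and Cyp2c69 rose and Cyp2c54 fell, and their part in those changes was not tested. The Kupffer cell markers summed to 458 to 469 CPM in control liver, 478 to 500 in KAP1-deleted liver and 209 to 245 in tumour, and 5 of 8 were called lower in tumour against KAP1-deleted liver. The part of the cell mix was not tested either.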

How the data were processed

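Per the labels' protocols, libraries of 6 mouse samples were made with a TruSeq kit that keeps strand, and sequenced. Their extraction text speaks of cell lines, although each sample is labelled as liver or tumour. The deposited values are counts, whole reads per Ensembl gene, made by the authors with TopHat and HTSeq 0.6.1 on mm9, per the submitters' processing notes. Not given in the sources used here: the version of TopHat, the annotation, the strand setting and the placing of reads with several matches. Entries naming no gene, 20.9% to 36.7% of reads per library, were left out.

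Genes were tested with edgeR 4.0.16 (R 4.3.3): filterByExpr (minimum count 10, total 15), TMM scaling, 1 mean per group over all 6 libraries, a robust quasi-likelihood fit with 3 residual degrees of freedom, two-sided p-values adjusted by Benjamini-Hochberg over 17558 genes and a threshold of 0.05. The SE is the log2 fold change over the square root of F. TMM factors were 0.864 to 0.948 in livers and 1.22 and 1.31 in tumours. The fit was tested on simulated data. The labels do not say how the 2 mice of a group relate beyond separate codes, and batch is 1 value throughout.

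The mouse codes pair KAP1-deleted liver and tumour, whose deviations correlated with r = 0.185 across genes. A fit with the mouse as a block, which rests on 2 pairs and gives each control mouse a term of its own, is an alternative. Others were scaling, filters, DESeq2 1.42.0, limma-voom (limma 3.58.1), the compared libraries alone, and each library left out. Identities came from Biopython 1.88 alignments of GENCODE M21 coding sequences. The genes named are the 10 members, their relatives, checks, and up to 4 genes per list by adjusted p, with a few key genes of a list (Por, Nr1i2, Nr1i3, Hnf4a, Stat5b, Cyp2b10) added after their values were seen. Members and lists were chosen with earlier results of these data known.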

Additional observations from a re-analysis of the deposited data

How the results depend on the processing

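Of 430 alternative values for single Cyp2c genes, 384 kept direction and side of the threshold, 23 lost a call, 15 gained one and 8 changed sign. Those 8 were uncalled. In KAP1-deleted against control liver Cyp2c55 was -0.015 when control 1 was left out, and -0.015 to 1.97 over the libraries left out in turn. In tumour against KAP1-deleted liver Cyp2c50 was 0.40 with library totals alone and 0.17 when KAP1-deleted replicate 2 was left out (range -0.40 to 0.17). In that comparison Cyp2c23 turned to -0.0095 when control 1 was left out, -0.55 when KAP1-deleted replicate 1 was and -0.11 when tumour 2 was (range -0.55 to 0.87). In tumour against control liver Cyp2c37 was -0.25 when control 2 was left out and -0.19 when tumour 1 was (range -0.25 to 0.38). The cause was not tested.

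Counts of called genes moved more. In KAP1-deleted against control liver the Cyp2c genes called were 4 with no filter on low counts and 0 with a mean CPM of at least 1 or with only the 4 libraries compared, and 0 to 1 when 1 library was left out. Over all genes the 59 calls became 571 with no filter, 34 with a mean CPM of at least 1, 230 with DESeq2, 38 with limma-voom, 20 with the 4 libraries and 30 to 75 when 1 library was left out. In tumour against KAP1-deleted liver 2007 became 4833 with library totals, 3819 with no filter and 640 to 2715 when 1 library was left out. With the replicate block by mouse, which rests on only 2 pairs, it was 3893, with 8 of the 10 Cyp2c genes called. In tumour against control liver 2443 became 4584 with library totals, 4115 with no filter and 1103 to 2620 when 1 library was left out. No paired analysis was possible because each control mouse gave 1 library, for the comparisons with control liver. The block changed no other call of a Cyp2c gene than those of Cyp2c29 and Cyp2c37.

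Library totals alone moved the median of all genes (log2) from -0.03 and -0.02 to 0.50 and 0.45 in the tumour comparisons. The share of called genes that were higher went from 42.0% and 44.2% to 89.2% and 86.3%. With upper-quartile scaling in tumour against KAP1-deleted liver it was 52.0%. By 31-base words found in no other gene, 6 of 10 genes kept their rank of level per length. With 2 samples per group a lone sample is assumed to vary like the others when 1 is left out. Reads that match several genes limit the counts of Cyp2c40, Cyp2c69 and Cyp2c37 most, and counts of 7 to 48 in liver limit the fold of Cyp2c55.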

Other observations

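Across the 6 libraries, each of the 10 genes was set beside the 12565 genes compared, by Pearson's r of log2 levels. With 3 groups in so few libraries, high values of r arise wherever the same groups differ, so r is given as a description. Trim28 itself was among the nearest to Cyp2c23 (r = 0.975), after 0610037L13Rik (0.984) and Rbp4 (0.975), the plasma carrier of retinol. Nearest to Cyp2c54 were Susd4 (0.998), Lrit2 (0.994) and Tat (0.993), the liver tyrosine aminotransferase. Nearest to Cyp2c37 were Cyp4f15 (0.968), another P450, and Slco1a5 (0.968), an anion uptake carrier. Nearest to Cyp2c55 was Zcchc9 (0.9996), and to Cyp2c38 Pdzrn3 (0.999). Nearest to Cyp2c29 were Rps4x (0.989) and Dnaja4 (0.986), and to Cyp2c50 Galnt11 (0.957). Csrp2 was among the nearest 3 of both Cyp2c40 and Cyp2c69, at 0.997 each.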
